A study of Mus musculus with 24 samples.

Results

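Open chromatin of the newborn mouse lens was represented by 107737 FAIRE regions, each grouped by the combination of 5 lens ChIP-seq lists that it overlapped by at least 1 bp. These were all regions of the FAIRE list, out of 316828 intervals in all lists used from the series. The 5 lists covered H3K4me1, H3K4me3, H3K27ac, H3K27me3 and RNA polymerase II (Pol2). FAIRE and ChIP material came from lenses of CD-1 mice at postnatal day 1 (P1), freshly crosslinked after dissection. No treatment or genetic change was named in the labels. Lists of the same 5 targets and of Pax6 from CD-1 forebrain at E12.5, an embryonic stage, and a lens Pax6 list, served as readouts that the grouping did not use. Lens and forebrain differ in both tissue and age, and the effects of these cannot be told apart here.

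Each lens list came from 1 library, so there was no replicate check, no test over animals and no p-value. Exact Clopper-Pearson 95% intervals are given for shares and exact order-statistic 95% intervals for medians. They cover counting error over the regions of these lists only, since regions are not replicates and reads are not independent molecules. The labels name the whole lens, in which epithelial and fiber cells are mixed, and do not give how many lenses were pooled. In such bulk chromatin, a mark in few cells and a weak mark in all cells cannot be told apart. The tissue label was not checked against marker genes, because the lists name no genes and no mm9 annotation was used here.

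FAIRE isolates DNA that crosslinks poorly to nucleosomes and thereby marks promoters, enhancers and other sites of open chromatin. H3K4me1 is typical of enhancers, H3K4me3 of promoters, and H3K27ac of active promoters and enhancers. H3K27me3 is laid down by Polycomb repressive complex 2 at silenced genes, and a promoter with both H3K4me3 and H3K27me3 is called bivalent. Pol2 marks sites of transcription. In the lens, Pax6 is the paired-domain and homeodomain factor required for lens formation and for the epithelium from which fiber cells arise.

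FAIRE regions were short, with a median width of 265 bp, quartiles of 167 and 486 bp, and a range of 132 to 5373 bp. At the shortest width of 132 bp stood 8253 regions (7.66%), and 3249 regions were over 1 kb. MACS2 peaks had medians of 746 bp for H3K4me3, 465 bp for H3K27ac and 300.5 bp for Pol2. SICER islands of H3K4me1 and of H3K27me3 both had a median of 3000 bp. The depth of the FAIRE library was not stated in the labels. In the island lists, the median H3K4me1 island held 47 ChIP reads and 46 control reads, and the median H3K27me3 island held 59 and 15.

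A small set of islands stood apart by their control reads. In 18 H3K4me1 and 4 H3K27me3 islands, control reads per kb were over 10 times the median of the list. Only 36 FAIRE regions (0.0334%) lay within 1 kb of such islands. They were concentrated in the combination of H3K4me1 with H3K4me3, where they made 14 of 158 regions, and in that of H3K4me1, H3K4me3 and H3K27ac, where they made 14 of 154. The values of these combinations are therefore given with and without them.

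Most lens FAIRE regions lay outside every one of the 5 lists. In total 10723 regions (9.95%, 9.77% to 10.1%) overlapped at least 1 list and 97014 (90.0%, 89.9% to 90.2%) overlapped none. Among the marked regions, 7808 overlapped 1 list, 2311 overlapped 2, 571 overlapped 3 and 33 overlapped 4. No region overlapped all 5, for which a count of 0 allows a share of up to 0.00342%. Of the 32 possible combinations 29 were seen, and the 3 not seen all held H3K4me1, H3K27me3 and Pol2 together.

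**Figure D1:**
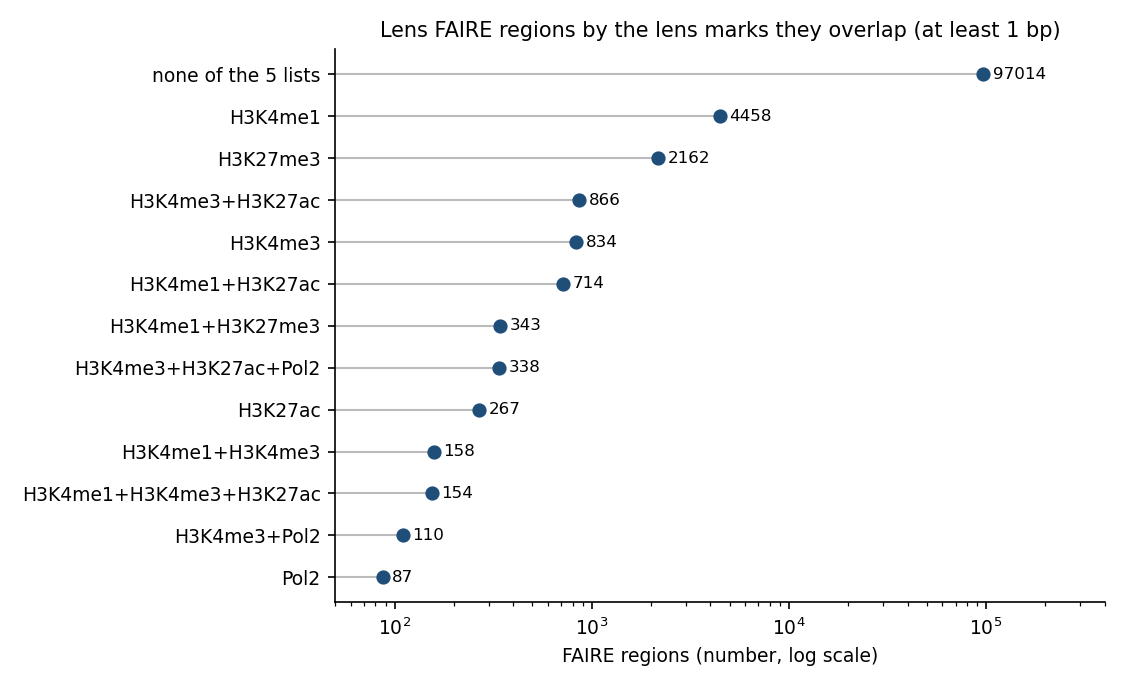
Number of lens FAIRE regions (log scale) in each combination of the 5 lens lists that held at least 50 regions. Regions in none of the lists numbered 97014, and the largest marked combinations were H3K4me1 with 4458 regions and H3K27me3 with 2162.

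A few combinations held most marked regions: the 6 largest held 9377 regions, 87.4% of those marked. H3K4me1 without any other list was the largest, with 4458 regions (4.14% of all FAIRE regions), followed by H3K27me3 with 2162 (2.01%). Both are also the lists that cover the most genome, and these counts depend on how many and which intervals a list holds. With each list cut to its 3332 strongest intervals, 2.38% of FAIRE regions were marked and 0.558% overlapped H3K4me1. H3K4me3 or H3K27ac then made 47.1% of marked regions, against 34.04% with the full lists. This cut changes list length and interval strength together. FAIRE lay in 17.8% of the strongest quartile of H3K4me1 islands and 32.7% of the weakest. For H3K4me3 peaks the shares were 22.7% and 10.5%. At promoter-type chromatin, H3K4me3 with H3K27ac held 866 regions, H3K4me3 alone 834, and H3K4me3 with H3K27ac and Pol2 338. At enhancer-type chromatin, H3K4me1 with H3K27ac held 714 regions. H3K27ac alone, with neither H3K4me1 nor H3K4me3, held 267 regions and was not assigned to either type. H3K4me1 with H3K27me3 held 343 regions. The remaining combinations of at least 50 regions were H3K4me1 with H3K4me3 (158), H3K4me1 with H3K4me3 and H3K27ac (154), H3K4me3 with Pol2 (110) and Pol2 alone (87).

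Counts depend on how much genome a list covers, so FAIRE centres were also counted per Mb inside and outside each list. The density over the whole span was 40.8 centres per Mb. Inside Pol2 peaks it was 271.2, or 6.67 times the density outside them. H3K27ac peaks (99.8 per Mb, 2.46 times) and H3K4me3 peaks (95.4 per Mb, 2.36 times) came next, followed by H3K4me1 islands (75.1 per Mb, 1.89 times). H3K27me3 islands went the other way, with 18.8 per Mb inside and 41.9 outside, a ratio of 0.448. Polycomb-marked chromatin thus held fewer FAIRE regions per Mb than the rest of the span, while the other 4 lists held more.

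The marks at a FAIRE region were paired to different degrees. Of 648 regions with Pol2, 485 (74.8%, 71.3% to 78.1%) also overlapped H3K4me3 and 419 (64.7%) H3K27ac. Of 2574 regions with H3K4me3, 1412 (54.9%, 52.9% to 56.8%) also overlapped H3K27ac, and of 5930 regions with H3K4me1, 938 (15.8%, 14.9% to 16.8%) did. Most open regions within H3K4me1 islands thus had no H3K27ac peak over them. For H3K4me3 the missing H3K27ac was often close by. Of the 1162 H3K4me3 regions without H3K27ac over them, 791 (68.1%, 65.3% to 70.7%) lay on an H3K4me3 peak that overlapped H3K27ac elsewhere along its length. Counted by peak, H3K27ac thus accompanied 2199 of the 2574 H3K4me3 regions (85.4%).

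Opposing marks met at few open regions in number. Among the histone marks, the shares were near or above those over all FAIRE regions. H3K4me3 and H3K27me3, the bivalent pair, were both present at 83 FAIRE regions, 3.22% of those with H3K4me3 (against H3K27me3 at 2.45% of all FAIRE regions) and 3.15% of those with H3K27me3 (against H3K4me3 at 2.39% of all). H3K27ac and H3K27me3, which occupy the same lysine and cannot share a histone tail, were both present at 72 regions, 2.89% of those with H3K27ac. H3K4me1 met H3K27me3 more often, at 383 regions, 14.5% (13.2% to 15.9%) of those with H3K27me3, against H3K4me1 at 5.50% of all. Pol2 met H3K27me3 at 11 regions, 1.70% (0.850% to 3.02%) of those with Pol2. This share was below the 2.45% of all FAIRE regions, which lay within its interval.

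Marked FAIRE regions were wider than unmarked ones. The median width was 304 bp (298 to 311 bp) for regions in any list and 260 bp (258 to 262 bp) for regions in none, a difference of 44 bp. By number of lists from 0 to 4 the medians were 260, 273, 398, 474 and 456 bp, the last over 33 regions. A wider region overlaps more by construction, and with FAIRE windows of 200 bp around each centre the difference was 20 bp. The order among combinations was wide: H3K27me3 alone had a median of 219 bp (210 to 232 bp), below the unmarked regions. H3K4me1 alone had 295 bp and H3K4me3 alone 288 bp. Combinations with H3K27ac were wider, at 410.5 bp with H3K4me3, 389 bp alone and 491.5 bp (464 to 523 bp) with H3K4me1. Among combinations of at least 50 regions the widest was H3K4me1 with H3K4me3 and H3K27ac, at 565.5 bp, or 522 bp without the 14 regions near control-rich islands. H3K4me3 with Pol2 but no H3K27ac had 249.5 bp (217 to 285 bp), against 421 bp (368 to 488 bp) where H3K27ac was also present.

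Marks were also counted by width. Between the narrowest of 5 near-equal groups (132 to 154 bp) and the widest (543 to 5373 bp), the share in H3K27ac went from 0.839% to 4.54% and the share in H3K4me1 from 3.997% to 7.36%. The share in H3K27me3 was 2.54% (2.33% to 2.76%) and 2.23% (2.03% to 2.43%), with overlapping intervals. When only the centre of a region had to lie in the interval, which gives width no advantage, H3K27ac went from 0.492% to 2.35% and H3K4me1 from 3.85% to 6.60%. By that rule H3K27me3 stood at 2.37%, 2.77%, 2.14%, 1.76% and 1.73% from the narrowest group to the widest, highest in the second.

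**Figure D2:**
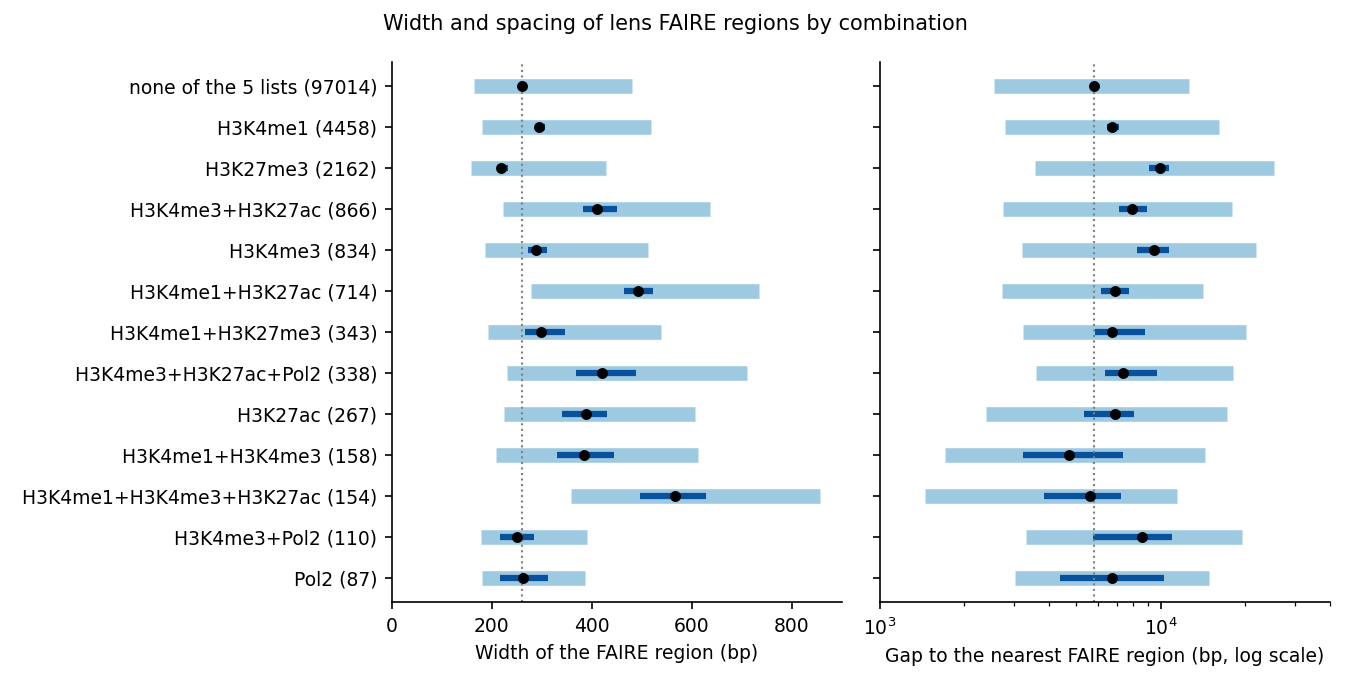
Width (left, bp) and gap to the nearest other FAIRE region (right, bp, log scale) of the lens FAIRE regions of each combination, with region numbers in parentheses. Points are medians, dark bars their exact 95% intervals, pale bars the quartiles, and dotted lines the medians of unmarked regions (260 bp and 5805 bp); H3K27me3 has the lowest and H3K4me1 with H3K4me3 and H3K27ac the highest median width.

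Spacing separated the combinations too. Over the list, neighbouring regions were 11446.5 bp apart at the median, with quartiles of 4890 and 26514.8 bp, and no pair was closer than 536 bp. The median gap to the nearest other region was 7547 bp (7276 to 7796 bp) for marked and 5805 bp (5756 to 5855 bp) for unmarked regions, a difference of 1742 bp. Polycomb-marked regions stood most alone among the larger combinations, with 9958 bp (9111 to 10736 bp) for H3K27me3 alone, and H3K4me3 alone was close to it at 9507.5 bp (8225 to 10698 bp). H3K4me1 alone (6731.5 bp), H3K4me1 with H3K27ac (6894 bp) and H3K4me1 with H3K27me3 (6722 bp) had intervals that overlapped one another. H3K4me1 with H3K4me3 had 4731.5 bp, or 4897.5 bp without the regions near control-rich islands.

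Marked regions lay beside other marked regions when they were close. Among neighbouring pairs with at least 1 marked member, both members were marked in 60.1% of pairs up to 1 kb apart (330 of 549), 47.5% at 1 to 2 kb, 27.02% at 2 to 5 kb, 19.0% at 5 to 10 kb and 16.1% beyond 50 kb. Where the nearest region lay within 1 kb, it had the same combination for 63.7% (58.5% to 68.7%) of H3K4me1 regions and 65.3% (56.1% to 73.7%) of H3K27me3 regions. For H3K4me3 with H3K27ac the share was 14.8% (7.90% to 24.4%), and 42.0% of these neighbours were unmarked. These shares, and their fall with distance, also follow interval width, since close neighbours can lie on the same interval. Median widths were 3000 bp for islands of both marks, 746 bp for H3K4me3 peaks and 465 bp for H3K27ac peaks. Sharing beyond that was not tested. Unmarked regions were far from the lists: their median distance to the nearest listed interval was 58815.5 bp, 4.32% lay within 1 kb of one, and 46.7% within 50 kb.

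Open regions lay beside, rather than at, the summits of promoter-type and acetylated peaks. At H3K4me3 peaks, FAIRE centres numbered 7.03 per 1000 peaks per 100 bp within 100 bp of the summit, 19.0 at 200 to 500 bp on either side, and 5.76 at 1500 to 2000 bp. At H3K27ac peaks the same values were 10.2, 21.9 and 6.42. Both profiles therefore had a dip at the summit between a pair of shoulders. Pol2 peaks had no such dip, with 27.5 centres at the summit and 21.1 at the flanks, against 6.93 outside. Lens Pax6 peaks were sharpest, with 97.6 at the summit, 16.7 at the flanks and 4.85 outside. Where a peak overlapped a FAIRE region, the median distance from its summit to the FAIRE centre was 382 bp (371 to 394 bp) for H3K4me3, 306 bp (294 to 318 bp) for H3K27ac, 184 bp (170 to 194 bp) for Pol2 and 94 bp (84 to 103 bp) for Pax6. These distances also follow peak width, since H3K4me3 peaks are the widest and Pax6 peaks the narrowest.

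**Figure D3:**
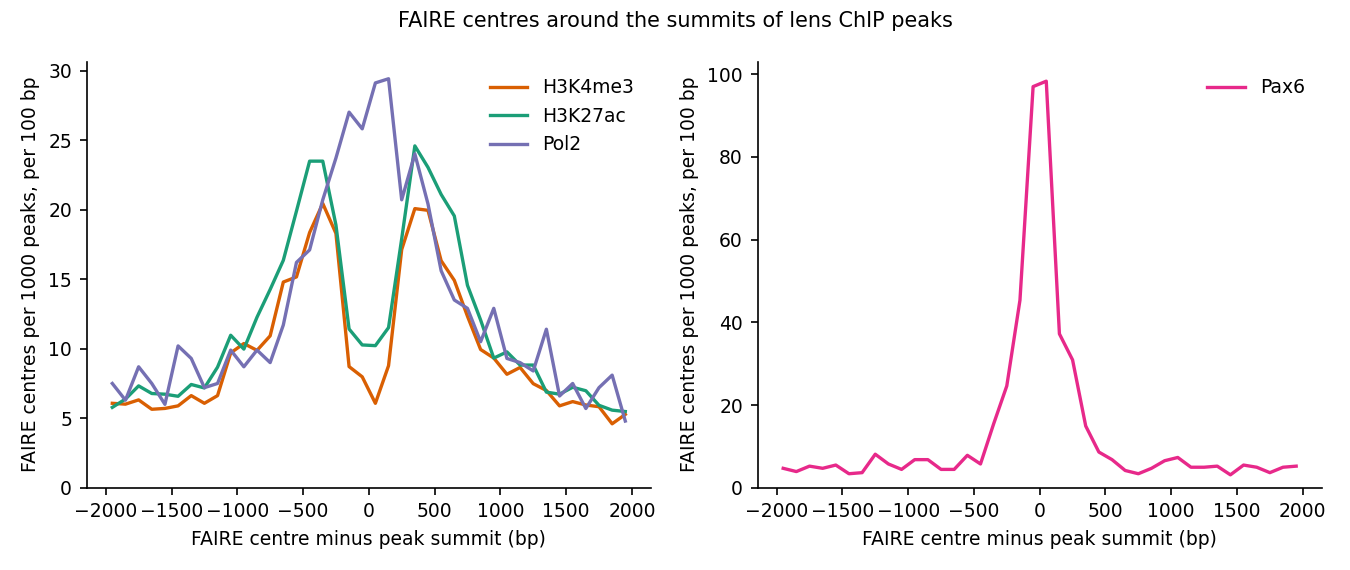
FAIRE centres per 1000 peaks in bins of 100 bp, by distance in bp from the summits of lens H3K4me3, H3K27ac and Pol2 peaks (left) and of lens Pax6 peaks (right, other scale). H3K4me3 and H3K27ac have a dip at the summit, while Pol2 and Pax6 are high there, Pax6 reaching 97.6 within 100 bp.

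Within islands, the place of open chromatin differed between the 2 marks. From one end of an H3K4me1 island to the other, the 5 equal parts held 51.9, 86.1, 100.4, 86.0 and 51.2 FAIRE centres per Mb, so the middle held the most. Just outside, density was 50.9 per Mb up to 1 kb away and 39.1 at 1 to 2 kb. H3K27me3 islands were even across their length, with 20.2, 17.9, 18.5, 17.0 and 20.1 per Mb. Up to 1 kb outside them the density was 35.4 and at 1 to 2 kb 28.3. It was 26.3 at 2 to 3 kb and at 3 to 5 kb, 26.95 at 5 to 20 kb, and 35.8 at 20 to 100 kb. The surroundings of these islands were thus also below the 40.8 per Mb of the whole span. Compared with each of these distances, FAIRE regions were fewer throughout H3K27me3 islands and not only at their centres.

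**Figure D4:**
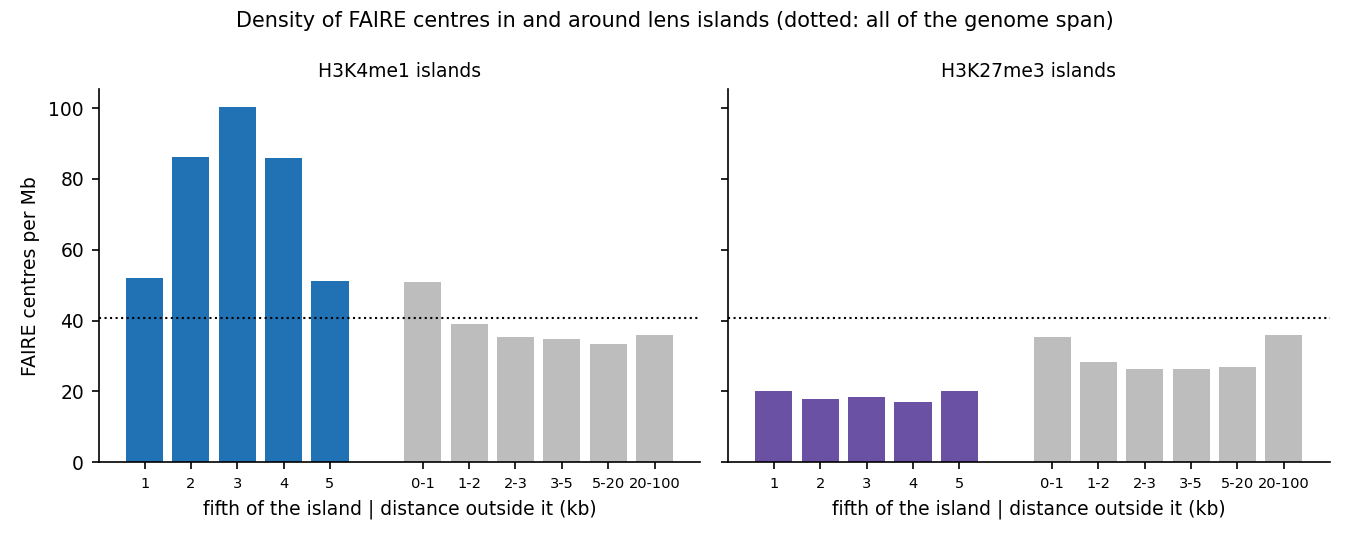
FAIRE centres per Mb in 5 equal parts of lens H3K4me1 (left) and H3K27me3 (right) islands, coloured, and at distances outside them in kb, grey. The dotted line is the density over the whole span, 40.8 per Mb; the middle of H3K4me1 islands reaches 100.4, and every part of H3K27me3 islands lies between 17.0 and 20.2.

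Seen from the marks, the intervals that held a FAIRE region differed from those that held none. Only a minority held one: 657 of 3332 for Pol2 (19.7%), 2752 of 16289 for H3K4me3 (16.9%) and 2734 of 20053 for H3K27ac (13.6%). Whether intervals without a FAIRE region lay in closed chromatin was not tested, since the FAIRE list has no score and its depth is not known. Of 20811 H3K4me1 islands 5263 (25.3%) held a FAIRE region, and 36.8% (35.5% to 38.1%) of these also overlapped H3K27ac, against 19.8% (19.2% to 20.5%) of islands without FAIRE. Islands with FAIRE were wider (3600 against 2800 bp), but in each quartile of width the share with H3K27ac was higher where FAIRE was present, from 21.7% against 17.5% in the narrowest to 52.0% against 30.3% in the widest. Among islands without H3K4me3, 1388 of 2953 (47.0%, 45.2% to 48.8%) held FAIRE when H3K27ac was present and 3018 of 14312 (21.1%, 20.4% to 21.8%) when it was absent. The ratio of ChIP over control, the authors' value for each island and used only within its list, went the other way. Its median was 2.94 in islands with FAIRE and 3.20 in those without, and it was lower with FAIRE in all 4 width quartiles. Median ChIP reads per kb were not lower with FAIRE, at 16.8 against 16.5. Control reads per kb were higher with FAIRE, at 16.2 against 14.7.

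At H3K4me3 peaks the contrast lay with Polycomb. Of 2511 bivalent peaks, those overlapping H3K27me3, 115 (4.58%, 3.796% to 5.47%) held a FAIRE region, against 2637 of 13778 (19.1%, 18.5% to 19.8%) of the other H3K4me3 peaks. Bivalent peaks without FAIRE were narrower, with a median of 592 bp against 978 bp for those with it. Within each width quartile, however, H3K27me3 lay at 3.07% to 5.12% of peaks with FAIRE and at 13.2% to 24.8% of peaks without. Peak strength, the authors' fold enrichment at the summit, moved with this: in the weakest quartile H3K27me3 lay at 7.73% of peaks with FAIRE and 32.4% of those without, and in the strongest at 2.16% (1.33% to 3.32%) and 2.92% (2.36% to 3.57%), whose intervals overlapped. Peaks with FAIRE also overlapped H3K27ac (83.2% against 66.2%) and Pol2 (27.4% against 17.6%) more often, and their median fold enrichment was 14.3 against 11.2.

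H3K27me3 islands met active marks at a higher share where FAIRE was present. Only 2332 of 31034 (7.51%) held a FAIRE region. Of these, 17.8% (16.3% to 19.5%) overlapped H3K4me3, against 6.40% (6.12% to 6.69%) of islands without FAIRE. In numbers, 416 islands with H3K4me3 had FAIRE and 1838 did not. FAIRE and H3K4me3 need not lie at the same place of an island, and 83 FAIRE regions overlapped both marks. Likewise 22.5% of islands with FAIRE overlapped H3K4me1, against 8.30% of those without. Islands with FAIRE were wider, with a median of 4600 bp against 2800 bp. In each quartile of width, however, H3K4me3 lay at 12.9% to 21.8% of islands with FAIRE and 4.02% to 12.1% of those without. The intervals did not overlap within a quartile, though the widest still mixed widths from 4600 to 204000 bp. At Pol2 peaks the intervals overlapped: H3K4me3 lay at 88.9% (86.2% to 91.2%) of those with FAIRE and at 90.0% (88.8% to 91.1%) of those without.

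Lens Pax6, which took no part in the grouping, separated the combinations. It overlapped 226 of 714 regions (31.7%, 28.3% to 35.2%) with H3K4me1 and H3K27ac, and 588 of 4458 (13.2%, 12.2% to 14.2%) with H3K4me1 alone. Regions with H3K4me1 and H3K27me3 had 16.3% (12.6% to 20.7%), and H3K27ac alone had 10.1% (6.77% to 14.4%). Both of these intervals overlapped that of H3K4me1 alone. All of these were above the unmarked regions, of which 393 (0.405%, 0.366% to 0.447%) overlapped Pax6. Promoter-type combinations were lower than these, at 0.959% for H3K4me3 alone, 2.19% (1.33% to 3.41%) for H3K4me3 with H3K27ac and 2.66% with Pol2 added. Over all FAIRE regions the share was 1.29%. H3K27me3 alone had 0.879%.

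The combinations of H3K4me1 with H3K4me3 depended on control-rich islands. With H3K27ac, 13.0% (20 of 154) overlapped Pax6, and without the 14 regions near those islands 4.29% (6 of 140) did. Without H3K27ac, the share was 8.23% (13 of 158) with those regions and 0.694% (1 of 144) without them. The Pax6 peaks at the former combination had a median fold enrichment of 2.12, against 6.90 over the whole Pax6 list. At H3K4me1 with H3K27ac it was 9.20 (8.54 to 9.86), at H3K4me1 alone 7.85 (7.56 to 8.21) and at unmarked regions 7.23 (6.90 to 7.56). At H3K27ac alone the median was 11.6, with a wide interval of 6.89 to 14.5 over 27 regions.

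Regions with Pax6 were wider than those without it in the same combination. A wider region overlaps a Pax6 peak more by construction, and this comparison was not repeated with centres or fixed windows. For H3K4me1 with H3K27ac the medians were 575 bp (519 to 638 bp) and 449 bp (401 to 495 bp), for H3K4me1 alone 376 bp (349 to 404 bp) and 283.5 bp (274 to 294 bp), and for unmarked regions 303 bp (278 to 346 bp) and 260 bp. Within regions of like width, the order of H3K4me1 with H3K27ac, H3K4me1 alone and unmarked regions also stood. The place of H3K27me3 alone against unmarked regions was not resolved among narrow regions. Among regions of 155 to 213 bp, H3K27me3 alone had 0.178% (0.00451% to 0.989%, 561 regions) and unmarked regions 0.398%. Among the narrowest the shares were 0.410% (0.0497% to 1.47%, 488 regions) and 0.264%. Among the narrowest regions (132 to 154 bp) Pax6 lay at 10.6% of regions with H3K4me1 and H3K27ac (3.55% to 23.1%), 6.10% with H3K4me1 alone and 0.264% of the unmarked. Among the widest (543 to 5373 bp) the shares were 37.6% (32.3% to 43.2%), 18.2% (15.8% to 20.7%) and 0.545%. H3K4me1 with H3K27ac and H3K4me1 alone had overlapping intervals among the narrowest regions and among those of 155 to 213 bp. Among the widest they did not. From the side of Pax6, 1002 of the 1395 FAIRE regions that overlapped it (71.8%, 69.4% to 74.2%) were marked, and 910 (65.2%) carried H3K4me1. From the side of H3K4me1 islands, 18.9% (17.9% to 20.03%) of those with FAIRE overlapped Pax6 and 3.45% (3.17% to 3.75%) of those without. By quartile of island width the shares were 13.3% to 26.0% with FAIRE and 2.57% to 5.08% without.

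The forebrain lists showed which lens combinations were also marked in another tissue. Of marked lens FAIRE regions 77.0% overlapped at least 1 of the 5 forebrain lists, against 7.57% of unmarked regions. Promoter-type regions were shared to different degrees: forebrain H3K4me3 lay at 92.0% (90.0% to 93.7%) of regions with lens H3K4me3 and H3K27ac and at 94.1% of those with Pol2 as well. With H3K4me3 alone the share was 71.9%, and over all 2574 regions with lens H3K4me3 it was 82.7%. Combinations with lens H3K27ac but no lens H3K4me3 differed in which mark was shared. At lens H3K4me1 with H3K27ac, forebrain H3K4me1 lay at 75.5% (72.2% to 78.6%) and forebrain H3K27ac at 38.8% (35.2% to 42.5%), and at lens H3K27ac alone the order was the other way, with forebrain H3K4me1 at 52.8% (46.6% to 58.9%) and forebrain H3K27ac at 61.4% (55.3% to 67.3%). Forebrain H3K4me3 lay at 1.82% (0.973% to 3.09%) of regions with lens H3K4me1 and H3K27ac. At lens H3K27ac alone it lay at 13.1% (9.30% to 17.8%). At lens H3K4me3 with H3K27ac, forebrain H3K27ac lay at 82.6% (79.9% to 85.0%).

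Polycomb marking was partly shared. Forebrain H3K27me3 lay at 64.5% (62.4% to 66.5%) of regions with lens H3K27me3 alone and at 71.1% (66.0% to 75.9%) with lens H3K4me1 added, against 2.81% of unmarked regions. It also lay at 15.9% of regions with lens H3K4me1 alone and at 12.3% of those with lens H3K4me1 and H3K27ac. Forebrain Pax6 followed the order of lens Pax6 in part, at 18.8% (15.97% to 21.8%) for lens H3K4me1 with H3K27ac, 16.04% (12.3% to 20.4%) with H3K27me3 in its place, and 8.79% (7.98% to 9.66%) for H3K4me1 alone. The first pair had overlapping intervals.

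**Figure D5:**
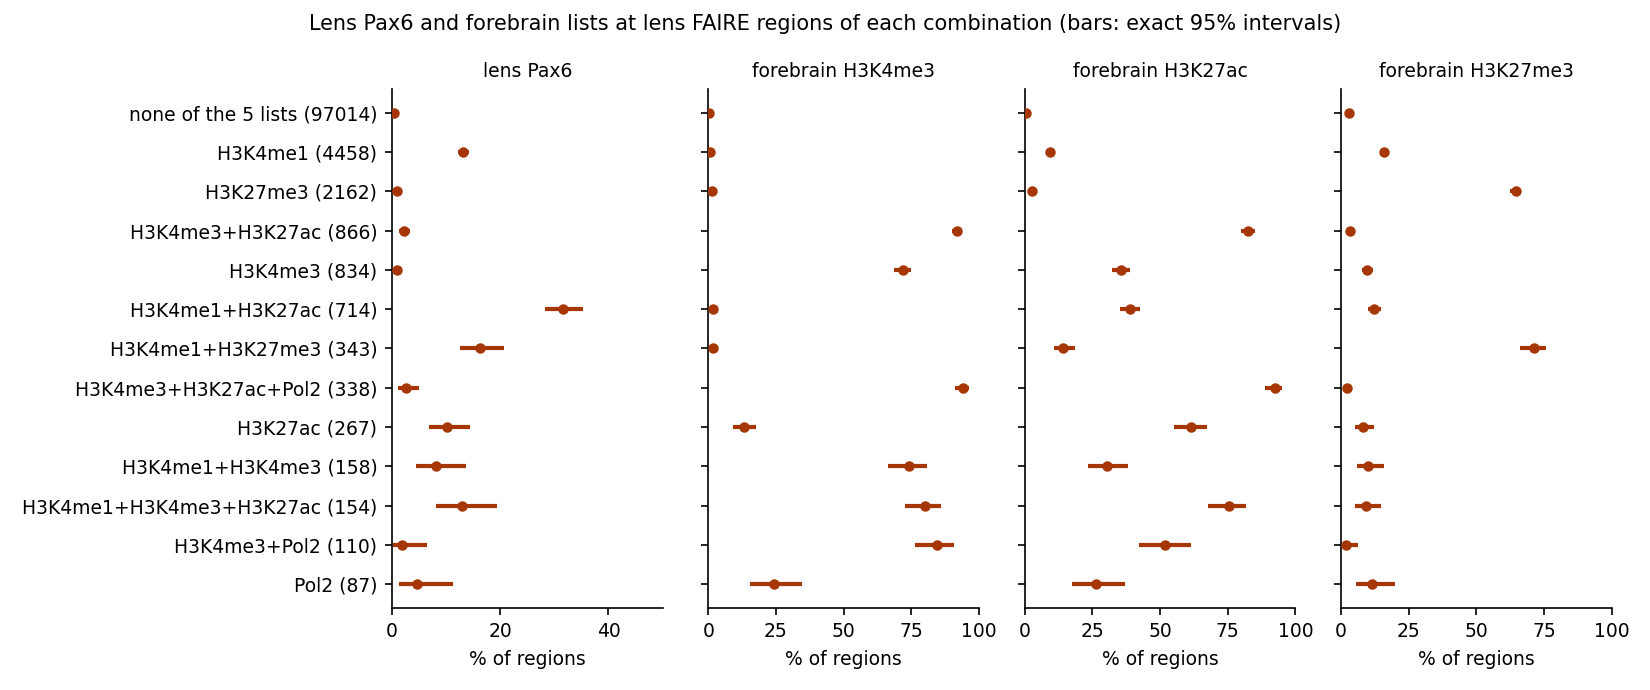
Share of the lens FAIRE regions of each combination (number in parentheses) that overlapped lens Pax6 and forebrain H3K4me3, H3K27ac and H3K27me3, in percent, with exact 95% intervals as bars. Lens Pax6 is highest at H3K4me1 with H3K27ac (31.7%), forebrain H3K4me3 lies at 71.9% to 94.1% of the combinations shown with lens H3K4me3, and forebrain H3K27me3 is highest at combinations with lens H3K27me3.

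Chromosomes differed in how much of their open chromatin was marked. On autosomes FAIRE density lay between 26.2 regions per Mb (chromosome 7) and 54.3 (chromosomes 3 and 16), and the marked share between 6.41% (chromosome 16) and 17.6% (chromosome 11). Chromosomes with many listed intervals per Mb had fewer FAIRE regions per Mb: over the 19 autosomes Spearman's rho was -0.78 for H3K27ac, -0.78 for H3K27me3, -0.74 for H3K4me3, -0.69 for H3K4me1 and -0.57 for Pol2. This is a description of 1 FAIRE library, from which all points come. The X chromosome held 19.8 FAIRE regions per Mb, below every autosome, and its marked share of 7.08% (6.22% to 8.01%) lay within the autosomal range. It differed in its marks, with H3K27me3 at 5.68% of its 3293 regions and H3K4me1 at 0.668%. H3K27me3 islands covered 16.5% of the X chromosome and 4.68% of the whole span. The sex of the animals was not given in the labels.

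Single regions picked by width or by number of lists are given as examples, which need not be typical. All coordinates are 1-based on mm9. The widest region with H3K4me1 alone, on chromosome 1 at 14403281 to 14405636 (2356 bp), overlapped a lens Pax6 peak of fold enrichment 13.1 and no forebrain list. The widest with H3K4me1 and H3K27ac, on chromosome 15 at 11268050 to 11270104 (2055 bp), also overlapped lens Pax6 (7.44) and no forebrain list. Neither was typical in the latter. At least 1 of the 5 forebrain lists lay at 66.5% of regions with H3K4me1 alone and 79.0% with H3K4me1 and H3K27ac. The widest with H3K4me1 and H3K27me3, on chromosome 8 at 74367507 to 74369810 (2304 bp), overlapped Pax6 peaks of both tissues and forebrain H3K27me3, with a lens fold enrichment of 20.03. By contrast, the widest with H3K4me3 and H3K27ac, on chromosome 5 at 23121265 to 23123920 (2656 bp), overlapped forebrain H3K4me1, H3K4me3 and H3K27ac and no Pax6 peak.

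Among the regions with the most marks, a region of 1013 bp on chromosome 3 at 9607642 to 9608654 overlapped H3K4me1, H3K4me3, H3K27ac, H3K27me3 and Pax6. One of 974 bp on chromosome 11 at 87236007 to 87236980 overlapped H3K4me3, H3K27ac, a Pol2 peak of fold enrichment 23.4 and a Pax6 peak of 14.0. The widest region of the whole list, on chromosome 9 at 3023445 to 3028817 (5373 bp), overlapped H3K4me1, H3K4me3, H3K27ac and Pax6. It lay in a control-rich H3K4me1 island at 3000001 to 3038400 that held 14 FAIRE regions, 16425 ChIP reads and 26264 control reads. The next widest, on chromosome 1 at 24618402 to 24622963 (4562 bp), overlapped no list of either tissue.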

How the data were processed

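Lens FAIRE regions and ChIP-seq lists of 2 mouse tissues were analysed as deposited, on build mm9, per the submitters' processing notes. MACS2 is named there for FAIRE and ChIP, with no version or threshold. The authors' MACS2 lists give each peak's fold enrichment at the summit (a ratio over control), its −log10 q-value and its summit. The authors' SICER islands (windows of 200 bp, gaps of 600 bp, FDR of 0.001, per the labels of the lists) give raw counts of ChIP and control reads, a ratio scaled by library size, and an FDR as the deposited p-value. The FAIRE list gives positions and no score. Aligner, inputs paired with each list, FAIRE control and total depth are not stated in labels or files, so counts in islands are the depth known. The forebrain Pax6 list was made from 2 replicates in a way not given.

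Overlap meant at least 1 bp, with Python 3.11.15, numpy 2.4.6, pandas 2.3.3 and scipy 1.17.1. The overlap counts equalled those of bedtools 2.31.1 in 12 of 12 settings and were tested on simulated data. Gaps are bases between the edges of neighbours, centres are midpoints, and the span is the sum of the highest listed coordinate of each chromosome. FAIRE centres around summits were counted in bins of 100 bp. Alternatives covered the overlap rule, list thresholds, list length, fixed windows, sex chromosomes, merging of neighbours and control-rich islands. Regions were named as the widest of each combination with at least 50 regions, the 5 widest, the 5 with the most lists including Pax6, the 3 islands of each mark with the most FAIRE regions, and the 5 longest chains of regions at most 5 kb apart; only some are described. Regions and rules were chosen with earlier results of these data known. Sequences, genes and RNA were not used here.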

Additional observations from a re-analysis of the deposited data

How the results depend on the processing

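Over 7 results and their alternatives, leaving out the 200 bp merge, 29 of 63 values moved by less than the error of the reported value and 34 by more. Of the 27 that are differences, which alone can change sign, 0 did. The share of FAIRE regions in any of the 5 lists was 8.44% when the centre had to lie in the interval, 8.56% with an overlap of 0.5 of the shorter interval, 9.40% with 200 bp windows, 13.8% with gaps of up to 1 kb allowed, 9.11% with stricter lists (q of at most 1e-05, FDR of at most 1e-06) and 2.38% with lists cut to the 3332 strongest intervals. In the same order, H3K4me1 stood at 5.16%, 5.17%, 5.36%, 7.30%, 4.89% and 0.558%, and at 5.66% without chromosomes X and Y. H3K27me3 stood at 2.15%, 2.15%, 2.34%, 4.18%, 2.15% and 0.437%, and at 2.35% without X and Y. H3K4me3 or H3K27ac made 21.0%, 23.0%, 29.3%, 44.4%, 35.5% and 47.1% of marked regions, against 34.04% as reported. The width difference was 33 bp by centres, 20 bp with windows and 15 bp with gaps of 1 kb. The difference in gap was 2165 bp when regions within 1 kb were merged, an alternative chosen after seeing the data because no pair lies within 200 bp, so that the 200 bp merge left the list as it was. Pax6 at H3K4me1 regions minus Pax6 at unmarked ones was 14.9 percentage points as reported, 11.1 by centres, 13.2 with windows, 13.4 with gaps of 1 kb and 17.2 with equal lists. The share of marked regions thus depends on the overlap rule and on how many and which intervals the lists keep. The FAIRE list, which has no score, could not be made stricter. No paired analysis was possible because each list used stands for 1 library or 1 pooled call, and no result comes from a test.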

Other observations

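The 5 longest runs of closely spaced FAIRE regions held 37, 28, 26, 23 and 23 regions, of which 2 in all were marked. Over all FAIRE regions 9.95% were marked. These 5 do not stand for all runs of at least 10, whose marked share is given below. Joining neighbours at most 5 kb apart, 56.1% of regions stood alone, and 298 regions lay in 17 runs of at least 10. The longest run, on chromosome 8 at 19928340 to 20035874 (mm9), held 37 FAIRE regions in 107.5 kb, of which 2 overlapped H3K27me3 and none another of the 5 lists. Runs of 28 regions on chromosome 11 at 3038838 to 3099930 and of 26 on chromosome 5 at 14899925 to 14963627 held no marked region. From regions that stood alone to runs of 5 to 9, the marked share went from 11.04% (10.8% to 11.3%) to 4.67% (3.92% to 5.51%). In runs of at least 10 it was 14.4% (10.6% to 18.9%), and 10.2% (29 of 284, 6.95% to 14.3%) without the 14 regions near control-rich islands.

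H3K4me1 islands held up to 14 FAIRE regions and H3K27me3 islands up to 8. Apart from the island on chromosome 9, the H3K4me1 islands with the most were on chromosome X at 166407001 to 166447200, with 12 regions, 2296 ChIP reads and 4691 control reads, and on chromosome 6 at 47596601 to 47629000, with 12 regions, 668 and 1531 reads. The H3K27me3 island with the most, on chromosome 2 at 77808201 to 77834000, held 8 regions, 1560 ChIP reads and 1031 control reads.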
